A study of Mus musculus with 14 samples.

Results

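Nucleoside transporters carry adenosine, uridine, thymidine and their relatives across membranes. The 5 genes described here are the mouse concentrative transporter genes Slc28a2 and Gm14085 (a neighboring gene also named Slc28a2b) and the equilibrative transporter genes Slc29a1, Slc29a2 and Slc29a3. They were taken by symbol from the 24091 genes of the deposited count table, and all 5 passed the filter on low counts that left 12248 genes tested. Slc28a2, Slc29a1, Slc29a2 and Slc29a3 were chosen by family, whereas Gm14085 was chosen because its count was much lower in blast crisis than in chronic phase mice. Its difference between the groups is therefore a description, and no test of it is given.

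Bulk RNA-seq was performed on T cells sorted from the spleen, with 200000 cells per sample and 1 sample per mouse. The CP CML (chronic phase chronic myeloid leukemia) group held 8 Mir142+/+ mice and the BC CML (blast crisis) group held 6 Mir142-/- mice. Mice of both groups were C57Bl/6j, 6 to 10 weeks old and carried the BCR-ABL transgene, which the SCL-tTA driver switches on in blood stem and progenitor cells when tetracycline is withdrawn (tet-off), here for 3 weeks. No mice without BCR-ABL were included, and Mir142 is lost in every cell of the BC CML mouse, not in T cells alone. Sample names of the CP CML mice all share 1 number and those of the BC CML mice another. The labels do not say what these numbers mean, and whatever they mark cannot be told apart from genotype.

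Concentrative transporters (the CNT family, Slc28) use the sodium gradient to draw nucleosides into the cell against their own gradient. Slc28a2 encodes CNT2, which prefers purine nucleosides and uridine. Equilibrative transporters (the ENT family, Slc29) let nucleosides flow down their gradient in either direction. Slc29a1 (ENT1) and Slc29a2 (ENT2) do so at the cell surface, and Slc29a3 (ENT3) exports nucleosides from lysosomes and related compartments. Lymphocytes use these carriers to salvage nucleosides for DNA and RNA and to clear extracellular adenosine, and nucleoside drugs enter leukemic cells through them.

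The deleted gene was checked first. Mir142 was counted at 302 to 650 reads in the CP CML mice and at 0 reads in all 6 BC CML mice. At 95% confidence, a count of 0 leaves room for an expected count of up to about 3 reads in a library. Both mature microRNAs made from Mir142 are shown here, because the groups differ in Mir142 genotype. Sequences are those of RefSeq (GRCm38.p6, plus strand of chromosome 11, at chr11:87756867-87756887 and chr11:87756903-87756925). Capitals mark the seed, bases 2 to 8, with which a microRNA pairs to its targets.
mmu-miR-142a-5p: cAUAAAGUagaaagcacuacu
mmu-miR-142a-3p: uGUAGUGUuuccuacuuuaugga

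The 3′UTRs of the transporter transcripts were searched for the complement of each seed. The letters searched on the transcript strand were ACTTTAT and CTTTATA for the 5p arm and ACACTAC and CACTACA for the 3p arm, which overlap by 6 bases within each arm. None of them was found in the 591 bases of Gm14085, the 600 bases of Slc28a2, the 471 bases of Slc29a1, the 939 bases of Slc29a2 or the 3764 bases of Slc29a3 (longest 3′UTR per gene in GENCODE vM21). Among 20998 genes with a 3′UTR, 21.4% held a match for the 5p arm and 10.3% held a match for the 3p arm. The absence of these letters says nothing of pairing elsewhere.

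Gm14085 and Slc28a2 lie in tandem on the plus strand of chromosome 2 (mm10). Slc28a2 is listed at chr2:122426477-122461130 and Gm14085 at chr2:122484941-122528040, with 23810 bases between them. Both encode 660 amino acid codons. Their coding sequences align without a gap and match at 1875 of 1983 bases (94.6%). Both are shown here at the opening 60 coding bases, where they are nearly alike, and at coding bases 388 to 447, the stretch within 1 exon where they differ most, since these positions decide whether a read can be placed. Capitals mark bases that differ between the pair, 3 in the opening stretch and 28 in the other.
Gm14085 coding start (chr2:122486660-122486719): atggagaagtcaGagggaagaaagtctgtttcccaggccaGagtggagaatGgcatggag
Slc28a2 coding start (chr2:122441575-122441634): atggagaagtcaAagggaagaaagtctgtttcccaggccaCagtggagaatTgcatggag
Gm14085 most different (chr2:122494336-122494395): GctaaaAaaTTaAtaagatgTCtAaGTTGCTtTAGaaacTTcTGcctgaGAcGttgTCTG
Slc28a2 most different (chr2:122447889-122447948): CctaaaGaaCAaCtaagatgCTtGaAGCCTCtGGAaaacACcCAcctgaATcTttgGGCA

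The longest identical run of the coding sequences was 192 bases. Of all windows of the Gm14085 transcript as long as 1 sequenced read, 777 of 3640 (21.3%) also occurred in Slc28a2. The share was 11.1% within the coding sequence, 25.6% within the 5′UTR and 47.3% within the 3′UTR. How the counting treated reads that match both genes is not given in the sources used here, so the division of reads between them is uncertain. The equilibrative members were not similarly affected. Of the Slc29a1 windows 87 of 1992 (4.37%) also occurred in Gm17080, a gene model that overlaps its exons, and no window of Slc29a2 or Slc29a3 occurred in another gene.

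The upstream regions of the tandem pair are shown because the transcripts of both were lower in BC CML. Each is 300 bases of RefSeq sequence around the annotated start (GRCm38.p6, plus strand). Capitals mark matches to CTTTGA (TCF/LEF), TGTGGT (RUNX) or AGGAAG (ETS), searched on both strands.
Gm14085 promoter (chr2:122484691-122484990): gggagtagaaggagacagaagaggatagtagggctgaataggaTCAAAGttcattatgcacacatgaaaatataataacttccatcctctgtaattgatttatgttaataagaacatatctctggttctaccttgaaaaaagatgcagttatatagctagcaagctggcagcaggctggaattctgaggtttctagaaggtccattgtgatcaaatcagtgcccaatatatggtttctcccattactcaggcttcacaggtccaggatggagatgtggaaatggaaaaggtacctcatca
Slc28a2 promoter (chr2:122426185-122426484): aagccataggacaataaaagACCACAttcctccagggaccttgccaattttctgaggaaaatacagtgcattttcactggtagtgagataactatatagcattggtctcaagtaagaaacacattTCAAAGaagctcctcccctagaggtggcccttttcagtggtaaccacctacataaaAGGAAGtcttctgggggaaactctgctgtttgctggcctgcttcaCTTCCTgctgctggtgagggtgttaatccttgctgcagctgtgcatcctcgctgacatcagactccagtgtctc

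Unlike the coding sequences, these upstream regions matched at only 95 of 204 aligned bases (46.6%). The Gm14085 region held 1 TCF/LEF match and none for RUNX or ETS. The Slc28a2 region held 1 TCF/LEF, 1 RUNX and 2 ETS matches. Of 27025 promoters of the same length, 16.2% held the TCF/LEF letters, 16.9% the RUNX letters and 35.1% the ETS letters. Neither region held the TATA box, searched as TATAAA and found in 14.2% of promoters. The GC box, searched as GGGCGG and found in 35.9% of promoters, was also missing from both. Slc29a2 had 1 and Slc29a3 had 3 GC box matches, and of the 8 listed promoters of Slc29a1 5 held 1 or more and 3 held none. GC content was 40.0% for Gm14085 and 46.7% for Slc28a2, below the median of 52.7% over all promoters, and 53.7% to 72.0% for the promoters of the equilibrative members. Letter matches do not show that a factor binds.

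Library size ranged from 15703702 to 19914531 reads, and levels are given as CPM, the reads of a gene relative to those of its library after TMM scaling. Relative to CP CML, 65.2% of the genes tested differed in BC CML at an adjusted p below 0.05 (edgeR quasi-likelihood test, Benjamini-Hochberg over all genes tested). Lower and higher calls made up 32.7% and 32.6% of the genes tested. The groups of mice did not overlap for 36.9% of the genes, with 17.6% lower and 19.3% higher in BC CML. The median log2 fold change of all genes was -0.01 and the median absolute log2 fold change was 0.28. Against this background, 2 of the 4 members open to a test were called, Slc28a2 as lower and Slc29a3 as higher, so a call alone does not set the members apart from other genes.

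T cell markers were high in every library, with summed levels of 5080 to 5823 CPM in CP CML and 6604 to 7096 CPM in BC CML, and none of the 13 was at 0. Of these markers 7 were higher and 2 lower in BC CML, with Cd4 going from 404 to 243 CPM (log2 fold change -0.73) and Cd8a from 689 to 1263 CPM (0.87). Naive T cell markers were all lower in BC CML (7 of 7, summed 4890 to 6238 against 2683 to 3852 CPM), and effector and memory markers were higher apart from Prf1, which was lower (9 of 10, summed 733 to 898 against 1519 to 2056 CPM). Regulatory T cell markers showed 1 higher and 2 lower of 4 (403 to 472 against 359 to 524 CPM). In this sum, mean Foxp3 went from 94.2 to 28.5 CPM and Ctla4 from 65.5 to 25.9 CPM. Ikzf2 went the other way, from 203 to 312 CPM, and Il2ra did not pass (80.9 and 88.2 CPM). Myeloid markers were higher in 10 of 11 genes (78.5 to 455 against 544 to 1345 CPM), B cell markers in 5 of 6 (33.3 to 125 against 63.5 to 362 CPM), natural killer markers in 6 of 6 (155 to 208 against 556 to 779 CPM) and erythroid markers in 2 of 5 tested (17.5 to 71.6 against 55.2 to 90.0 CPM). No defining marker of these lists was at 0 in every library of a group. The table did not list 2 of the 9 erythroid markers, both globin genes. Cycling markers showed no call in 5 genes (332 to 467 against 343 to 659 CPM). These marker levels move with every difference between the groups given below, their part in them was not tested, and in bulk RNA fewer cells of a type cannot be told apart from less RNA per cell.

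Among the concentrative transporters, the Gm14085 transcript was far scarcer in BC CML T cells than in CP CML T cells. In the 8 CP CML mice its level was 105.6 CPM at the lowest, 127.3 at the median and 154.2 at the highest. In BC CML mice 1 to 6 it was 3.55, 2.87, 1.68, 4.03, 2.82 and 8.07 CPM, from 64, 46, 32, 77, 52 and 157 reads. The lowest CP CML mouse thus stood far above the highest BC CML mouse. Some reads were counted to Gm14085 in each BC CML mouse, and whether they came from Gm14085 or from Slc28a2 is uncertain. The mean was 128.0 ± 17.0 CPM (SD, n = 8) in CP CML and 3.83 ± 2.22 CPM (SD, n = 6) in BC CML, a 33.4-fold ratio of means. The log2 fold change was -5.04 (SE 0.24), the fourth lowest of the 12248 genes tested.

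Slc28a2, the CNT2 gene, was also lower in BC CML, by a smaller fold. Its level in the CP CML mice was 195.8 CPM at the lowest, 237.0 at the median and 254.1 at the highest. In BC CML mice 1 to 6 it was 152.0, 153.9, 144.6, 159.0, 129.1 and 137.5 CPM. All 6 BC CML mice were below all 8 CP CML mice. The mean went from 233.6 ± 17.0 CPM (SD, n = 8) to 146.0 ± 11.2 CPM (SD, n = 6), a log2 fold change of -0.68 (SE 0.06, edgeR adjusted p = 9.07e-09), so the CP CML level was 1.60-fold that of BC CML.

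**Figure D1:**
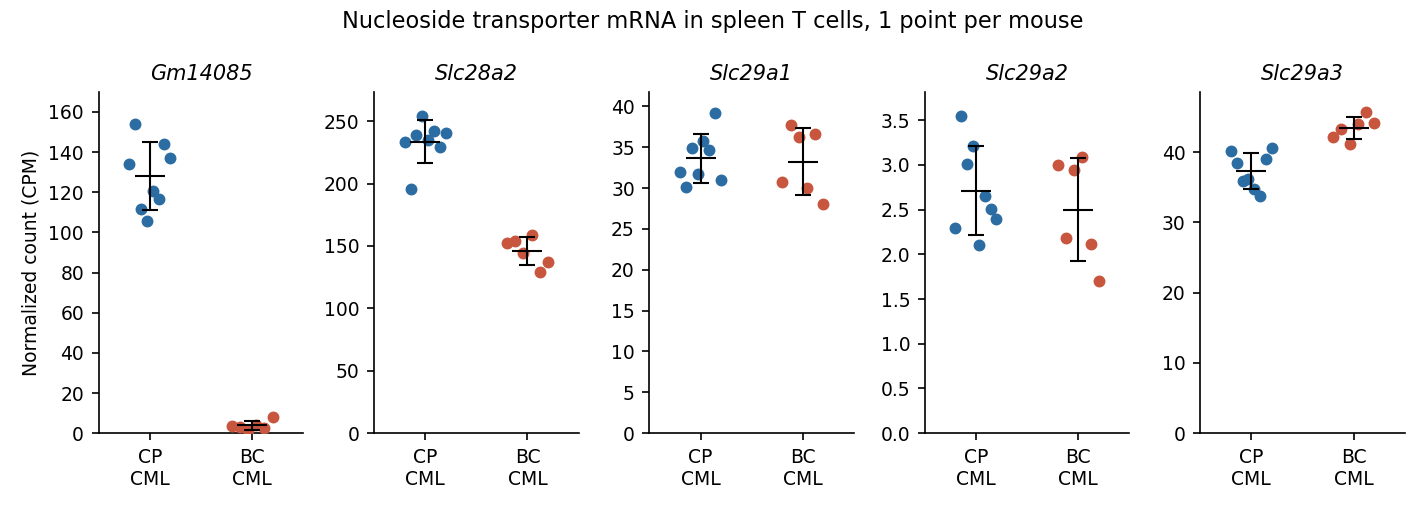
Normalized counts (CPM, linear axes from 0, each panel with its own scale) of the 5 nucleoside transporter genes in spleen T cells of 8 CP CML mice (blue) and 6 BC CML mice (red). Points are mice and black bars are mean ± SD. Gm14085 and Slc28a2 are lower in every BC CML mouse than in any CP CML mouse, Slc29a3 is higher in every one (41.1 to 45.7 against 33.7 to 40.6 CPM), and the groups overlap for Slc29a1 and Slc29a2.

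The equilibrative transporters of the cell surface showed no detectable difference. Slc29a1 (ENT1, minus strand, chr17:45585200-45599603) ranged from 30.2 to 39.2 CPM around a median of 33.3 in CP CML. In BC CML mice 1 to 6 it was 30.7, 37.7, 36.2, 30.0, 36.6 and 28.1 CPM. The groups overlapped, with means of 33.7 ± 3.02 CPM (SD, n = 8) and 33.2 ± 4.10 CPM (SD, n = 6). The log2 fold change was -0.02 (SE 0.08, edgeR adjusted p = 0.827), and the 95% interval of the BC CML to CP CML ratio ran from 0.890 to 1.09.

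Slc29a2 (ENT2, plus strand, chr19:5024006-5031972) was per length the least abundant member in CP CML, at 2.10 to 3.54 CPM around a median of 2.58. In BC CML mice 1 to 6 it was 2.99, 2.18, 2.94, 3.08, 2.11 and 1.70 CPM. These rest on 33 to 64 reads per library, and the groups overlapped. Means were 2.71 ± 0.496 CPM (SD, n = 8) and 2.50 ± 0.579 CPM (SD, n = 6), with a log2 fold change of -0.12 (SE 0.17, edgeR adjusted p = 0.550). The 95% interval of the ratio, 0.733 to 1.16, is wider than that of Slc29a1 at this depth.

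The lysosomal transporter Slc29a3 (ENT3, minus strand, chr10:60712072-60752782) rose slightly. It ranged from 33.7 to 40.6 CPM around a median of 37.3 in CP CML, and was 42.2, 43.3, 41.1, 44.0, 45.7 and 44.2 CPM in BC CML mice 1 to 6. The groups did not overlap, although the closest mice, at 40.6 and 41.1 CPM, were nearly equal. Means were 37.3 ± 2.56 CPM (SD, n = 8) and 43.4 ± 1.59 CPM (SD, n = 6), a log2 fold change of 0.22 (SE 0.05, edgeR adjusted p = 0.000731), which is smaller than the median absolute log2 fold change of all genes.

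Of the remaining nucleoside and nucleobase transporters, only 1 was tested. Slc43a3 (ENBT1), which carries purine bases, was at 8.53 ± 0.924 CPM in CP CML (SD, n = 8) and 9.03 ± 1.37 CPM in BC CML (SD, n = 6), and did not pass the edgeR test (log2 fold change 0.08, SE 0.10, adjusted p = 0.496). The concentrative genes Slc28a1 (CNT1) and Slc28a3 (CNT3) were at or near 0, with at most 5 reads in any library. Slc29a4, which encodes the monoamine and adenosine transporter PMAT, had 5 to 15 reads per CP CML library and 1 to 9 per BC CML library. These 3 genes did not pass the filter on low counts and were not tested. Slc29a4 passed it and was called lower when BC CML mouse 1, 3, 4, 5 or 6 was left out (log2 fold change -1.15 to -0.83, edgeR adjusted p = 0.0168 to 0.0368), and with no filter all 3 genes were called (Slc28a1 at -2.26, Slc28a3 at 2.63 and Slc29a4 at -1.04).

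Levels of different genes were compared as CPM per kb of the gene length listed in the table. In CP CML the order was Slc28a2 (60.1 CPM per kb), Gm14085 (34.4), Slc29a1 (13.7), Slc29a3 (6.80) and Slc29a2 (1.10), and no neighbors in that order overlapped across mice. In BC CML it was Slc28a2 (37.6 CPM per kb), Slc29a1 (13.5), Slc29a3 (7.91), Gm14085 (1.03) and Slc29a2 (1.02). Gm14085 thus moved from the second to the fourth place, where it and Slc29a2 overlapped and did not differ beyond their spread. All other neighbors in the BC CML order stayed apart.

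Summed per length, the tandem pair of concentrative genes went from 94.5 ± 2.70 CPM per kb in CP CML (SD, n = 8) to 38.6 ± 2.84 in BC CML (SD, n = 6). The 3 equilibrative genes together were at 21.6 ± 1.10 and 22.4 ± 1.65 CPM per kb. As a share of the summed level of the 5 genes, the concentrative pair made up 81.4% ± 0.731 in CP CML and 63.2% ± 2.86 in BC CML. Because Gm14085 was chosen for its fall, these sums are descriptions.

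The tandem pair was examined as 1 unit because of the reads that could belong to either gene. Gm14085 held 29.4% to 44.1% of the reads of both genes in the CP CML mice, with a median of 35.1% and a mean of 35.4% ± 4.58 (SD, n = 8). In the BC CML mice it held 1.15% to 5.55%, with a median of 2.21% and a mean of 2.57% ± 1.53 (SD, n = 6). The 95% Wilson interval was 42.8% to 45.3% in CP CML mouse 2, the highest, 28.3% to 30.4% in CP CML mouse 4, the lowest of its group, and 4.76% to 6.45% in BC CML mouse 6. In BC CML mice 1, 2, 4 and 5 the intervals ran from 1.37% to 3.07% in all and all overlapped each other. The interval of mouse 3, the lowest, was 0.814% to 1.62% and overlapped that of mouse 2 but not those of mice 1, 4 and 5. These intervals cover counting error only.

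With the reads of both genes added into 1 feature, the log2 fold change was -1.27. The summed level was 361.6 ± 10.2 CPM in CP CML (SD, n = 8) and 149.8 ± 11.0 CPM in BC CML (SD, n = 6). Among the CP CML mice the sum varied less, with a coefficient of variation of 2.83%, than Gm14085 at 13.3% or Slc28a2 at 7.26%. CP CML mouse 2 had both the highest Gm14085 level, 154.2 CPM, and the lowest Slc28a2 level, 195.8 CPM.

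**Figure D2:**
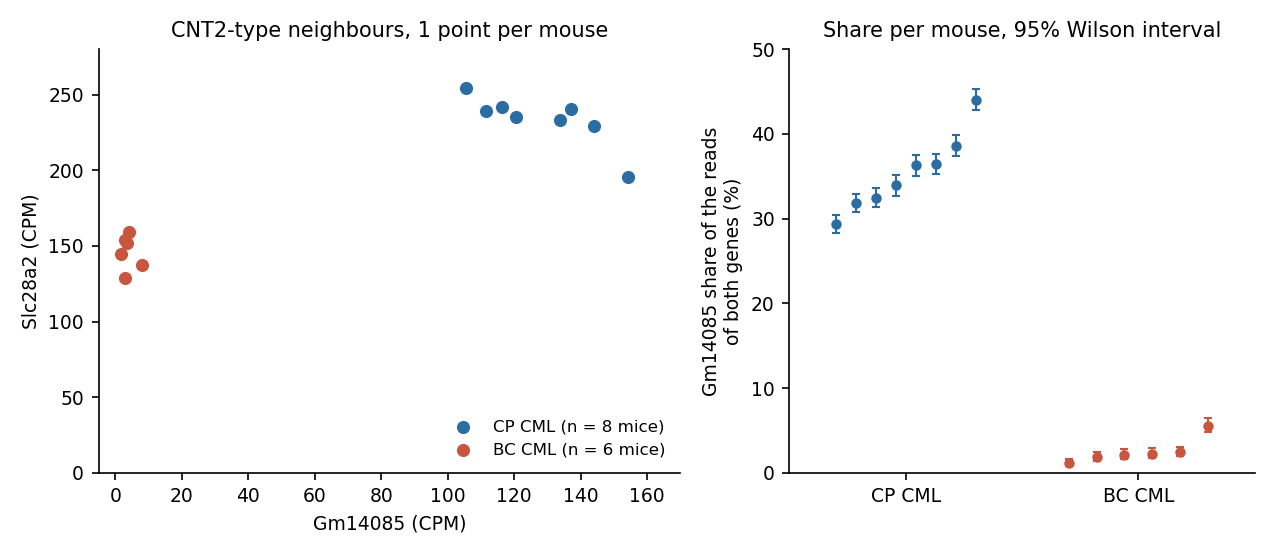
Left, Slc28a2 against Gm14085 (both CPM, linear axes) with 1 point per mouse, 8 CP CML in blue and 6 BC CML in red. Right, the share of the reads of both genes counted to Gm14085 (%), ordered by value within each group, with 95% Wilson intervals for counting error. CP CML mice lie at 29.4% to 44.1% and BC CML mice at 1.15% to 5.55%, and within CP CML the mice with more Gm14085 tend to have less Slc28a2 (Pearson's r = -0.79, not past correction).

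Between mice of the CP CML group, log2 levels of Gm14085 and Slc28a2 were inversely related, with Pearson's r = -0.79 (exact permutation p = 0.00298, n = 8) and Spearman's rho = -0.81 (exact permutation p = 0.0218, n = 8). This did not pass correction over the 20 relations computed between members within groups, with adjusted exact permutation p = 0.0595 for r and 0.436 for rho. Without the 2 mice farthest from the median, r was -0.60. In the BC CML group r was -0.08 and rho was 0.26 (exact permutation p = 0.899 and 0.658, n = 6). Gm14085 and Slc29a1 had r = -0.83 in BC CML (exact permutation p = 0.0194, adjusted 0.194, n = 6), rho = -0.77 (exact permutation p = 0.103, adjusted 0.685, n = 6) and r = -0.97 without 2 mice. No relation between members passed correction, and all points share the scaling of their library.

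The genes around the pair were examined because proximity was not used to choose the members. Of 24 listed genes that overlap the 500 kb on either side, 15 were tested, and 6 were higher and 5 lower in BC CML, 11 of 15 against 65.2% of all genes. Bambi-ps1, a pseudogene of the BMP and activin inhibitor Bambi that lies on the opposite strand between Slc28a2 and Gm14085 (chr2:122466583-122467797), had the largest change among the 15. In the CP CML mice it was at 10.7 to 17.5 CPM, and in BC CML mice 1 to 6 at 2.27, 1.75, 1.84, 2.04, 2.00 and 3.14 CPM. The groups did not overlap, and the mean went from 13.1 ± 2.74 CPM (SD, n = 8) to 2.17 ± 0.506 CPM (SD, n = 6), with a log2 fold change of -2.59 (SE 0.16, edgeR adjusted p = 2.22e-10). How strand was used in counting is not given in the sources used here, so reads of neighboring transcripts on the opposite strand may be included.

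Called genes on each side of the pair went both ways, and the share called, 73.3%, was near the 65.2% of all genes. On the side of Slc28a2, the adaptor gene Shf was lower (log2 fold change -0.40), while Sord, which encodes sorbitol dehydrogenase (0.42), the major histocompatibility complex class I light chain B2m (0.34), Ctdspl2 (0.19) and Casc4 (0.67) were higher. On the side of Gm14085, Spata5l1 (-0.24), the zinc transporter Slc30a4 (-0.95) and Bloc1s6 (-0.65) were lower, while Gatm, the entry enzyme of creatine synthesis (1.47), and AA467197 (1.14) were higher. Eif3j1, Spg11, Trim69 and Sqrdl did not pass the test, with log2 fold changes of -0.02, 0.08, 0.45 and 0.11.

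**Figure D3:**
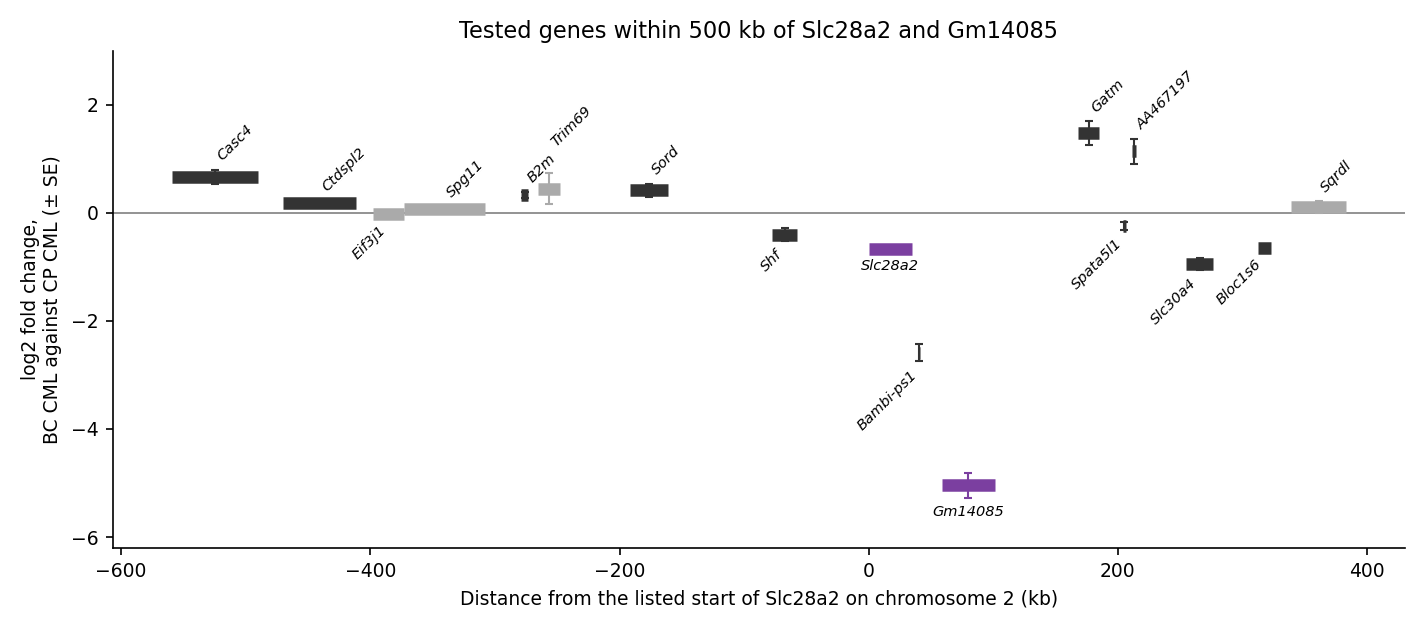
Log2 fold change of BC CML against CP CML (vertical axis, bars ± SE) for the 15 tested neighbors and the tandem pair, by distance in kb from the listed start of Slc28a2 (horizontal axis, to scale). Horizontal bars span each gene, with the pair in purple, genes at an adjusted p below 0.05 in black and others in gray. Gm14085 (-5.04), Bambi-ps1 (-2.59) and Slc28a2 (-0.68) lie next to each other below 0, with genes on both sides above and below 0.

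Enzymes that handle nucleosides once they are inside the cell were followed in 6 lists, because the transporters supply them. With the other transporters, 61 of 71 listed genes were tested, and 14 were higher and 20 lower in BC CML. That is 55.7% called, below the 65.2% of all genes, and the median log2 fold change was -0.06. Log2 fold changes of the tested genes ran from -1.67 to 2.27. Gm14085 was chosen for its fall, so its distance from these genes follows from that choice. Of the myeloid and effector markers 10 of 11 and 9 of 10 were also higher in BC CML, as given above, and their part in these calls was not tested.

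Nucleoside kinases trap imported nucleosides by adding a phosphate. Of 8 tested, 1 was higher and 3 lower, and 4 did not pass, with a list median of -0.14. Adk, the adenosine kinase, went from 37.6 ± 2.21 to 11.8 ± 2.03 CPM (log2 fold change -1.67, edgeR adjusted p = 2.18e-11). Dck, the deoxycytidine kinase that also activates nucleoside drugs, went from 81.4 ± 6.47 to 56.4 ± 7.42 CPM (-0.53, adjusted p = 5.86e-06), and for both genes the groups did not overlap. Uck2, a uridine-cytidine kinase, was slightly higher (0.17, adjusted p = 0.0107) and the mitochondrial Dguok slightly lower (-0.17, adjusted p = 0.0201). Errors are SD over 8 CP CML and 6 BC CML mice here and in the lists that follow.

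Among enzymes that convert nucleosides and bases, 9 of 13 were tested, with 1 higher, 4 lower and 4 not passing (median log2 fold change -0.13). Mtap, which salvages methylthioadenosine, went from 71.3 ± 5.03 to 43.5 ± 4.70 CPM (-0.71, edgeR adjusted p = 3.10e-08). Gda, the guanine deaminase, went from 4.36 ± 1.82 to 18.4 ± 4.68 CPM (2.09, adjusted p = 3.54e-06). Tymp (thymidine phosphorylase, -0.38) and Hprt (hypoxanthine and guanine salvage, -0.12) were lower with overlapping groups.

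Of the nucleotidases and nucleotide deaminases, 10 of 12 were tested, with 4 higher, 2 lower and 4 not passing (median 0.16). Ampd3, an AMP deaminase, went from 19.6 ± 2.09 to 9.31 ± 1.39 CPM (-1.07, edgeR adjusted p = 2.04e-08). The cytosolic nucleotidase genes Nt5c3 and Nt5c moved in opposite directions, from 48.8 to 68.0 CPM (log2 fold change 0.48, SE 0.04, adjusted p = 3.09e-08) and from 60.2 to 42.9 CPM (-0.49, SE 0.04, adjusted p = 3.35e-08). The mitochondrial Nt5m was higher (0.42, adjusted p = 0.000786).

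Purine de novo synthesis, the alternative to salvage, had 2 higher, 5 lower and 6 not passing of 13 (median -0.10). Prps1 (-0.62), which makes the ribose donor PRPP, Impdh1 (-0.46) of the guanine branch and Atic (-0.46), of the closing steps to IMP, were lower in BC CML with no overlap between groups, from 71.3, 105.1 and 138.7 CPM to 46.5, 76.6 and 100.6 CPM (edgeR adjusted p = 2.04e-07, 2.29e-07 and 1.56e-06). Adssl1, an adenylosuccinate synthase, was higher, from 2.00 ± 0.728 to 9.62 ± 2.42 CPM (2.27, adjusted p = 8.40e-08). For pyrimidine synthesis and deoxynucleotide supply, 2 were higher, 6 lower and 7 not passing of 15 (median -0.08). Cmpk1 (-0.42), Ctps2 (-0.29) and Nme2 (-0.53) were lower and Nme1 (0.15) higher, with edgeR adjusted p = 3.04e-08, 4.16e-07, 4.26e-07 and 0.00399.

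In lysosomes, where Slc29a3 exports the nucleosides released from degraded DNA and RNA, 4 of 5 tested genes of nucleic acid breakdown were higher, none lower and 1 did not pass (median 0.42), against 32.6% of all genes called higher. Acp2, a lysosomal acid phosphatase, went from 22.2 ± 3.73 to 36.3 ± 4.75 CPM (0.70, edgeR adjusted p = 2.56e-05). Dnase2a (0.42, adjusted p = 0.00138), the nuclease-like phospholipase genes Pld4 (0.98, adjusted p = 0.00505) and Pld3 (0.14, adjusted p = 0.00743) were higher with overlapping groups. The summed myeloid markers, 78.5 to 455 CPM in CP CML and 544 to 1345 CPM in BC CML, move with this list and with Slc29a3, and their part was not tested.

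**Figure D4:**
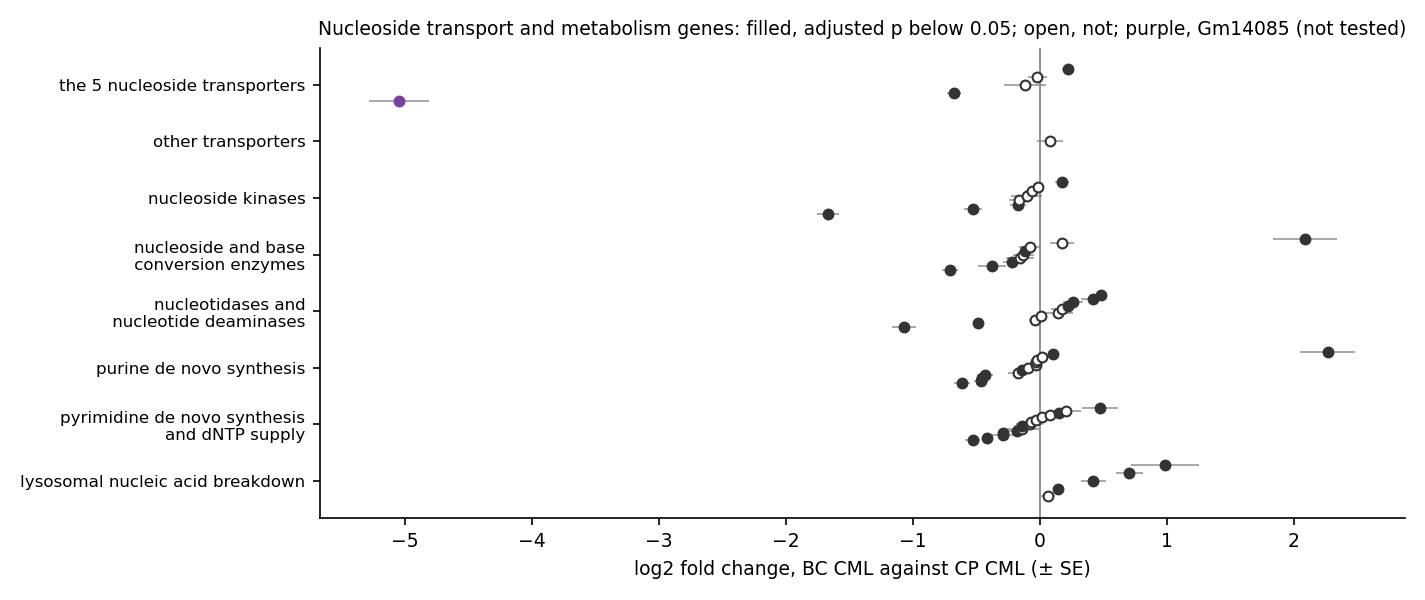
Log2 fold change of BC CML against CP CML (horizontal axis, bars ± SE, 14 mice) for the 5 nucleoside transporters and the tested genes of 7 related lists (rows, 1 point per gene, spread vertically for legibility). Filled points passed an adjusted p of 0.05, open points did not, and Gm14085 (purple) was not tested. Gm14085, chosen for its fall, lies at -5.04, and the other genes shown run from -1.67 (Adk) to 2.27 (Adssl1).

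The genes with the pattern most like Gm14085 were sought among 9160 genes with an average log2 CPM of at least 3, by Pearson's r of log2 CPM. Over all 14 mice these were Pip4k2a (r = 0.99), which encodes a phosphoinositide kinase, Zfp831 (0.99) and the neighbor Bambi-ps1 (0.99), a likeness that follows mainly the difference between the groups. Their levels went from 190.3 ± 6.98 to 113.8 ± 8.07 CPM, from 184.5 ± 4.49 to 114.4 ± 8.56 CPM and, for Bambi-ps1, as given above. All 3 genes are on chromosome 2, as are Gm14085 and Slc28a2, and any part of position in this likeness was not tested. Slc28a2 itself had r = 0.93.

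Within the 8 CP CML mice alone the most alike genes were 4932438A13Rik (r = 0.98), Coq10a (0.98) and Pithd1 (0.97), and Slc28a2 ranked 8850 of 9160. The leading genes over all mice were thus not those within CP CML, which lie on chromosomes 3, 10 and 4. The 9160 values of r at n = 8 are a ranking without a test.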

How the data were processed

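The members and gene lists were chosen with earlier results of these data known. Per the labels and the study's methods, the authors trimmed 2x101-base reads (Trimmomatic, FASTP), aligned them to mm10 (STAR 2.6.0) and counted them per gene (HTSeq 0.11.1). The deposited values used here are raw read counts per gene for 14 mice. The annotation, strand setting and treatment of reads matching several genes are not given in the sources used here.

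Genes were filtered with filterByExpr, scaled by TMM and tested with edgeR 4.0.16 (R 4.3.3, robust quasi-likelihood, Benjamini-Hochberg adjustment over the 12248 genes tested, threshold 0.05). SE is on the log2 scale and 95% intervals use the normal distribution. Groups came from the sample titles. CPM per kb uses gene lengths listed in the table. Correlations used log2 CPM with a prior count of 2 and exact two-sided permutation tests. Windows, coding alignments and 3′UTR matches used GENCODE vM21 transcripts, and promoters and microRNAs RefSeq GRCm38.p6 tables, all with the build of the counts.

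Named genes were the 5 members, Mir142, genes of the cell type marker lists, all other transporters and all tested neighbors. Up to 4 called genes with the lowest p per list were also named, as were the 3 genes most like Gm14085 over all and over CP CML mice. The marker genes (Cd4, Cd8a, Prf1 and the 4 regulatory T cell markers) were picked after their values were seen. Library totals of 15703702 to 19914531 reads set the counting precision. Replicates of a group differed by more than sampling noise. Alternatives were DESeq2 1.42.0, a likelihood ratio test, scaling by RLE factors or by library size alone, testing with no filter or only genes over 1 CPM in 6 or more mice, a replicate block, each mouse left out in turn and both tandem genes summed.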

Additional observations from a re-analysis of the deposited data

Results flagged for a closer look

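In 34 groups of values, the highest or lowest mouse was set against the others of its group, and 4 values from 3 mice stood apart by Dixon's criterion, where chance gives 1.7 values at 1 in 20. Both values of BC CML mouse 6 rest on the same Gm14085 reads. For Gm14085, BC CML mouse 6 was the highest of its group at 8.07 CPM, with the next at 4.03 CPM, and its Gm14085 share of the reads of the tandem pair was 5.55%, with the next at 2.47%. With BC CML mouse 6 left out, Gm14085 had a log2 fold change of -5.42. For Slc28a2, CP CML mouse 2 was the lowest of its group at 195.8 CPM, with the next at 229.3 CPM. Total reads were lowest in BC CML mouse 2, at 16145537 against 18319039 for the next of its group.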

How the results depend on the processing

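Slc28a2 was called lower and Slc29a3 higher in every alternative run, and Slc29a1 and Slc29a2 were called in none. Slc28a2 ran from -0.71 to -0.65 with each mouse left out, Slc29a3 from 0.20 to 0.24, and Gm14085 from -5.42 to -4.89. With the reads of the tandem pair summed, the fold change given for Gm14085 and for Slc28a2 became -1.271, since both genes are then 1 feature. Other transporters called went from 0 to 3 with no filter on low counts (Slc28a1 at -2.26, Slc28a3 at 2.63 and Slc29a4 at -1.04, each from at most 15 reads per library), and from 0 to 1 with each mouse left out, where Slc29a4 passed the filter and was called without BC CML mouse 1, 3, 4, 5 or 6 (adjusted p 0.0168 to 0.0368). Genes called ran from 7318 to 8719 over the alternatives, and the median log2 fold change of all genes from -0.02 to 0.03. Over the same alternatives, 6 to 8 purine synthesis, 6 to 8 pyrimidine and 3 to 4 lysosomal genes were called. Calls stayed at 4 kinases, 5 conversion enzymes and 6 nucleotidases and deaminases. With each mouse left out, these 6 counts ran from 5 to 7, 6 to 8, 4 to 4, 3 to 5, 5 to 6 and 6 to 7, in that order. Replicate numbers name different mice and do not pair them, with correlations of -0.27 to 0.36 between same-numbered mice, and a replicate block gave 7318 genes called, -0.67 for Slc28a2 (adjusted p = 2e-05) and 0.25 for Slc29a3 (adjusted p = 0.00354). Depth limits Slc29a2, at 33 to 64 reads per library, and Gm14085 in BC CML, at 32 to 157 reads.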
